A study of Rattus norvegicus with 2 samples.

Results

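The apolipoproteins described here are 10 genes, Apoa1, Apoa2, Apoa4, Apoa5, Apob, Apoc1, Apoc2, Apoc3, Apoe and Apom, which encode the proteins that coat the fat-carrying particles of blood plasma. They were chosen by gene symbol from the 13510 genes named on the array and have 11 of the 31038 probe sets analysed, with a pair for Apob and 1 for each of the others. The RNA came from primary rat hepatocytes, isolated liver parenchymal cells of male SD rats, cultured on collagen in a hepatocyte medium with growth factors. One group was the untreated control. The other was exposed for 24 h to 1 nM of the thyroid hormone triiodothyronine (T3), and the comparison asks which genes respond to the hormone in these cells. Each group is 1 Affymetrix Rat Genome 230 2.0 array. With no replicates, differences are given as values without tests or p-values. The labels used here do not state how many animals gave the cells, whether cells were pooled, or whether the control received the solvent of the hormone.

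Apolipoproteins hold lipid particles together, switch lipases on or off and act as ligands for receptors. Hepatocytes secrete apolipoprotein B in very-low-density lipoprotein, the triglyceride-rich particle of the liver, and the C apolipoproteins and apolipoprotein A-V govern how fast the triglyceride of such particles is hydrolysed and cleared. Apolipoproteins A-I and A-II form the protein shell of high-density lipoprotein (HDL), which carries cholesterol back to the liver, and apolipoprotein M travels mainly on HDL. Apolipoproteins A-IV and E are known from both kinds of particle and are described apart here. The classes follow the particle, or its lipolysis, for which a protein is mainly known. They do not mean that a protein is absent from the other kind of particle. Thyroid hormone acts through nuclear receptors that bind DNA half-sites as pairs, usually with a retinoid X receptor, and it is known to alter lipoprotein metabolism in the liver, where Apoa1 is among its known targets in rats.

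Promoter sequence was looked up for the members because several that lie side by side on a chromosome had higher signals together. The RefSeq table of build GRCr8 held windows of 300 bases, from 250 before to 50 after a transcription start, for 6 of the 10 members, 10 windows in all, since Apoc1, Apoa5 and Apoe have several starts. The 4 members without a window were Apoa1, Apoa2, Apob and Apoc3. Shown are the windows of Apoa4, Apoa5 and Apoc2, with higher signals under T3, and of Apom, with a lower one. Sequences run 5′ to 3′ on the strand of the gene, and capitals mark the nuclear receptor half-site AGGTCA and the TATA box TATAAA, searched on both strands.
Apoa4 (chr8:55435529-55435828, plus strand): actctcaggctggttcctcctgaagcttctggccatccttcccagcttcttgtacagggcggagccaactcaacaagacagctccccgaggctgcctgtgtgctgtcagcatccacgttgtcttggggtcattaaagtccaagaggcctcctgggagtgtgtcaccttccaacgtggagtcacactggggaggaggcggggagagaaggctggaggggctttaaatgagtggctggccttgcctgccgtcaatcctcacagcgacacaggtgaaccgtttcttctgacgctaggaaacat
Apoa5, the more upstream start (chr8:55457621-55457920, plus strand): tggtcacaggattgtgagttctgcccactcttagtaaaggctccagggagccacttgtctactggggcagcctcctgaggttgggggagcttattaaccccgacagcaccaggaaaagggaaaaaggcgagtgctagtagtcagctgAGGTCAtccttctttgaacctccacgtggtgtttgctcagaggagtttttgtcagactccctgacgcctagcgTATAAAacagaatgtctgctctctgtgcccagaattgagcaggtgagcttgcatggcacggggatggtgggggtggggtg
Apoc2 (chr1:88462316-88462615, minus strand): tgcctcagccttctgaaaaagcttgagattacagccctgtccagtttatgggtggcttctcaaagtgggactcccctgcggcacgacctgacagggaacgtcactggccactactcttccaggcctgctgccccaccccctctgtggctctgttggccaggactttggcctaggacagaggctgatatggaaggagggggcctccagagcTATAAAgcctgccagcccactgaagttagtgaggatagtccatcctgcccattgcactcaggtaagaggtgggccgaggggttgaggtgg
Apom (chr20:3695368-3695667, plus strand): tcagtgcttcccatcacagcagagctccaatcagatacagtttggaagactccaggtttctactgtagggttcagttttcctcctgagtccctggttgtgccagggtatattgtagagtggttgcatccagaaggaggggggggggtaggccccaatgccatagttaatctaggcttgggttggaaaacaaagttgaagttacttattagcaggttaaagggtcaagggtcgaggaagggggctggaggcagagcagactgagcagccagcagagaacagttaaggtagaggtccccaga
The half-site AGGTCA occurred in 1 of the 10 member windows, that of Apoa5 at position -103 from the start, against 16.2% of all 33469 windows in the table. TATAAA occurred in 3 of the 10 windows, at -40 in Apoc2 and, in both overlapping Apoa5 windows, at a single place that is -30 from the upstream start, against 14.2% of all windows. Direct repeats, in which GGTCA recurs on the same strand after any 2 or any 5 bases (half-sites spaced by 1 or 4), are arrangements that nuclear receptors are known to bind. They were in 0 of the 10 windows, against 0.164% and 0.0717% of all windows. The HNF4-type element CAAAGTCCA was in 0 of 10, against 0.391%. At shares this low, 0 of 10 windows says little about these members and nothing about those without a window. The longer repeats contain the last bases of the half-site, so these searches overlap. A match is a description of the letters only.

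All 10 genes were detected in both cultures, each by a probe set called present on both arrays. Over all probe sets, 56.7% were present on the control array and 55.6% on the T3 array. Array signals are the authors' scaled MAS5 intensities, and the ratio is the T3 signal over the control signal. A signal can differ because a cell type is rarer or because its cells hold less of the RNA, and these cannot be told apart here. Among the genes of triglyceride-rich particles, the C apolipoproteins and Apoa5 had higher signals with T3 and Apob a lower one. Apoc3 (probe set 1370009_at), whose protein inhibits lipoprotein lipase and delays the uptake of particle remnants, had a signal of 1065 in control cells and 1282 in treated cells, which is 20.4% higher. Apoc2 (1393139_at), which encodes the obligate cofactor of lipoprotein lipase, had 104 in control cells and 128 in treated cells, a ratio of 1.23. The cofactor and the inhibitor of the same lipase were thus higher by like amounts.

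Apoc1 (1368587_at), whose protein slows the receptor-mediated uptake of remnants, had a signal of 425 in control cells and 495 in treated cells, a ratio of 1.16. Apoa5 (1369011_at), whose protein promotes lipolysis at the vessel wall and lowers plasma triglyceride, had 104 in control cells and 127 in treated cells, a ratio of 1.22. These 4 genes lay close together, between 1.16-fold and 1.23-fold. Apob (1388190_at), which encodes the structural protein of the particle, went the other way, with 926 in control cells and 841 in treated cells, a ratio of 0.908. Its other probe set, 1371157_at, was called absent on both arrays, at signals of 19.6 and 19.5 and detection p-values of 0.195, so it gives no second measurement.

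The 3 HDL genes lay within 10% of control, in both directions. Apoa1 (1368335_at), the main protein of HDL, had a signal of 3040 in control cells and 2925 in treated cells, a ratio of 0.962. Apoa2 (1369727_at), the second structural protein of HDL, had 158 in control cells and 173 in treated cells, a ratio of 1.09. Apom (1386980_at), whose protein carries the lipid mediator sphingosine phosphate, had 185 in control cells and 170 in treated cells, a ratio of 0.916. Apoa1 and Apom were lower and Apoa2 higher. As percent of control the differences were -3.80 for Apoa1, 9.42 for Apoa2 and -8.40 for Apom.

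The members described apart, Apoa4 and Apoe, pointed in opposite directions. Apoa4 (1368520_at), which in rodents is made by liver as well as intestine and whose protein is known from chylomicrons and HDL, had a signal of 59.3 in control cells and 78.5 in treated cells. Its ratio of 1.32 was the highest of the 10 as deposited, but it is also the dimmest member. With 64 added to each signal its log2 ratio was 0.21 in place of 0.40, below 0.25 for Apoc3. Apoe (1370862_at), whose protein is the ligand that remnants use to enter cells through surface receptors, had 3174 in control cells and 2959 in treated cells, a ratio of 0.932. Over all members, 6 were higher and 4 lower with T3, while the ratio was above 1 in 50.1% of all genes detected and in 48.3% of the genes on both arrays that were at least as bright as the dimmest member.

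**Figure D1:**
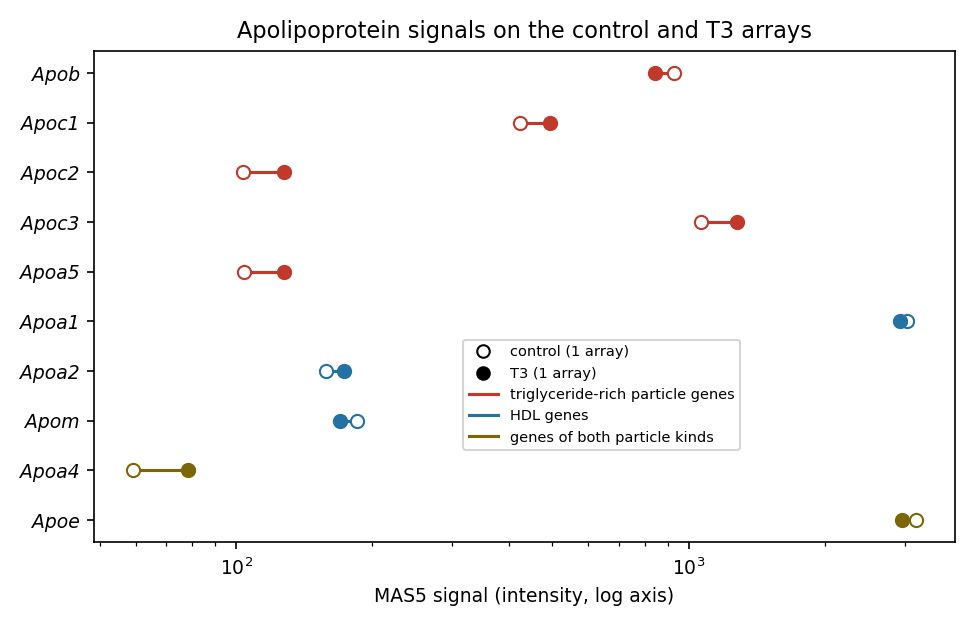
MAS5 signal (intensity, log axis) of each apolipoprotein gene on the control array (open circles) and the T3 array (filled circles), 1 array each, coloured by particle class. Apoa4, Apoa5, Apoc1, Apoc2, Apoc3 and Apoa2 have the filled circle to the right, and Apob, Apoa1, Apom and Apoe to the left.

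None of these differences was large. Past 1.5-fold in either direction were 0 of the 10 detected member probe sets. Of the 18332 probe sets detected on either array, 6.76% were past it (4.11% higher, 2.65% lower) and present on the brighter one. The authors' deposited tables of probe sets past 1.5-fold and 2-fold held 0 member probe sets. At 1.2-fold, 4 of the 10 detected were higher (Apoa4, Apoa5, Apoc2 and Apoc3) and 0 lower. Over all detected probe sets the shares at 1.2-fold were 13.1% higher and 11.1% lower. Dim probe sets make up much of those shares. Among the 6847 genes present on both arrays at or above the geometric mean signal of Apoa4, the dimmest member, 4.91% were 1.2-fold higher and 3.64% lower, and at 1.5-fold the shares were 0.467% and 0.219%.

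With no replicate, the spread of ratios among probe sets of like signal was used as a yardstick. Probe sets present on both arrays were divided into 5 bins by the geometric mean of their signals, and a bin holds real and technical differences together. Apoc3 lay above the central 95% of its bin, which ran from 0.854 to 1.19, and 2.12% of that bin had a ratio as high. The other 9 genes lay inside the central 95% of their bins. Apoc1, in the bin of Apoc3, had 3.30% of the bin at or above it. In their own bins these shares were 6.08% for Apoc2, 6.14% for Apoa4 and 6.90% for Apoa5. At the low end, 11.1% of its bin was as low as Apob, 18.2% as low as Apoe and 20.2% as low as Apom.

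A further yardstick came from genes measured more than once. In 1074 genes with a pair of probe sets present on both arrays and at least as bright as Apoa4, the ratios within a pair differed by a median of 1.09-fold, with a 95th percentile of 1.34-fold. All member ratios, from 0.908 to 1.32, lay closer to 1 than that percentile. The measures are unlike, since the percentile is of a difference between the ratios of a pair, pooled over dim and bright genes. A member value is a single ratio, and Apoc3 lay outside the narrower range of its own signal bin. The 18 hybridisation control probe sets, for transcripts spiked into the samples and read at signals of 73.8 to 3660, had ratios of 0.930 to 1.21. Pairs of probe sets and spiked controls hold differences between probes and hybridisations, and neither holds the spread between separate cultures. No member other than Apob has a further probe set, and that of Apob was not detected, so none of these ratios has a repeat measurement here.

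**Figure D2:**
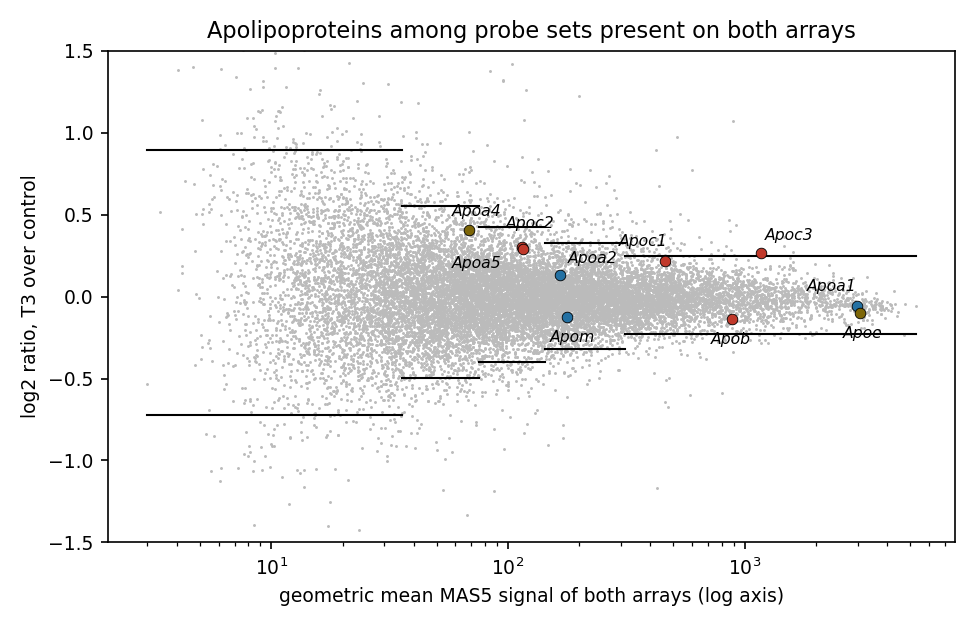
Log2 ratio of T3 over control signal against the geometric mean signal (log axis) for 16513 probe sets present on both arrays (grey points; 11 lie beyond the plotted limit of 1.5), with the 10 apolipoproteins in the colours of their particle class (red, triglyceride-rich; blue, HDL; brown, both). Black lines bound the central 95% of ratios in each of 5 signal bins, and Apoc3 is the member above its upper line.

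The triglyceride-rich particle genes were then set against the HDL genes. This is a contrast of gene classes and not of particles, since proteins of a class are not confined to its particle. The median log2 ratio was 0.27 over the 5 triglyceride-rich particle genes, that of Apoc3, and -0.06 over the 3 HDL genes, a ratio of 0.962. The medians differed by 0.32 on the log2 scale, or 1.25-fold. Over all 10 members the median log2 ratio was 0.17, and it was 0.00037 over the 9670 genes detected and -0.0057 over the genes at least as bright as Apoa4.

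The division between the classes was not clean. Of the 15 pairs of 1 triglyceride-rich particle gene and 1 HDL gene, the former had the higher ratio in 12, and the 3 exceptions were the pairs of Apob. Apob had the lowest log2 ratio of all members, -0.14, next to -0.13 in Apom and -0.10 in Apoe. Without Apob the class ran from 0.22 in Apoc1 to 0.30 in Apoc2, above the highest HDL gene, Apoa2 at 0.13. Apob was left out here after its value was seen, so this separation follows from the choice. With Apoe placed among the triglyceride-rich particle genes and Apoa4 among the HDL genes, the medians were 0.24 and 0.04 and the difference was 0.21, so that the HDL median changed sign.

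**Figure D3:**
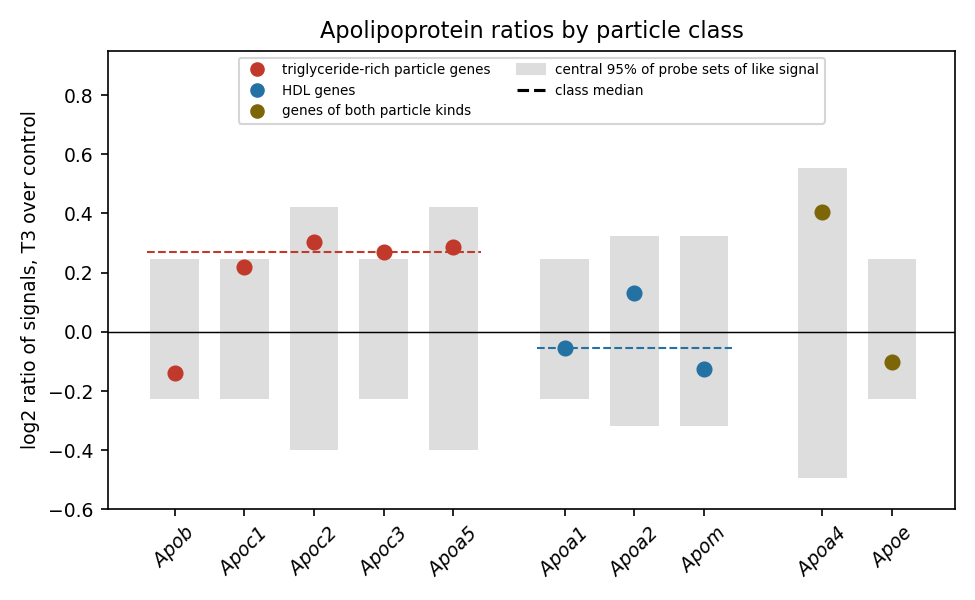
Log2 ratio of T3 over control signal for each apolipoprotein (points, 1 array per group), by particle class. Grey bars span the central 95% of probe sets of like signal and dashed lines are class medians, 0.27 for the triglyceride-rich particle genes and -0.06 for the HDL genes. Apob lies below 0 within its class.

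Most members sit in a pair of chromosomal clusters, and the members within a cluster did not differ alike. By the order of genes in GRCr8, Apoa1, Apoc3, Apoa4 and Apoa5 are adjacent on chromosome 8. Apoc3, Apoa4 and Apoa5 had log2 ratios of 0.27, 0.40 and 0.29, while Apoa1, at the end of the cluster, had -0.06. The flanking genes were nearer to 0 than Apoc3, Apoa4 and Apoa5. They were Sik3 at 0.0052 and Pafah1b2 at 0.05 on the Apoa1 side, and Zpr1 at 0.07 and Bud13 at 0.11 on the Apoa5 side.

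The cluster on chromosome 1 showed a like order. Apoc2 and Apoc1 had log2 ratios of 0.30 and 0.22, and Apoe, at its end, -0.10. Between Apoc1 and Apoc2 lies Apoc4, which is not among the 10 members and was looked up after the values of its neighbours were seen. The file titles 1 probe set apolipoprotein C-IV and gives it 3 symbols, and its signal was 51.3 in control cells and 70.2 in treated cells, a ratio of 1.37 within the central 95% of its bin (0.710 to 1.47). Outside the cluster Clptm1 stood at 0.07 next to Apoc2, and Tomm40 and Nectin2 at -0.04 and 0.07 beyond Apoe. Apoa2, Apob and Apom lie elsewhere in the genome, on chromosomes 13, 6 and 20. In both clusters the gene at one end was lower with T3 and its neighbours in the cluster were higher. The relation of position to ratio rests on 8 genes, among them Apoc4, read by a probe set with several symbols, and was not tested.

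**Figure D4:**
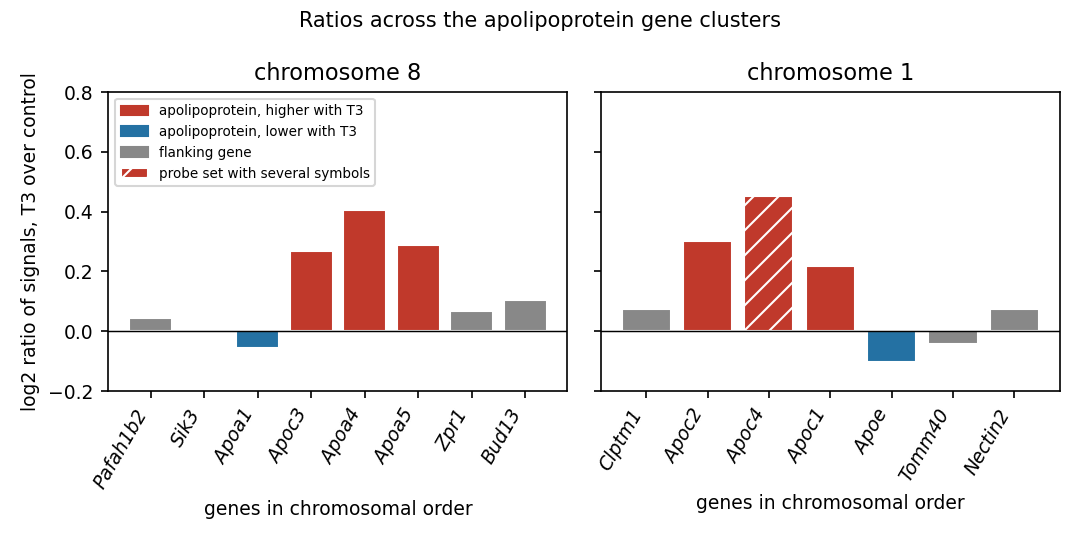
Log2 ratio of T3 over control signal (bars, 1 array per group) for genes in chromosomal order across the clusters on chromosomes 8 and 1. Red bars are apolipoproteins with a higher signal under T3, blue ones with a lower signal (Apoa1 at -0.06 and Apoe at -0.10), grey ones flanking genes, and the hatched bar is the Apoc4 probe set that carries several symbols.

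Genes that build, lipolyse and take up the particles, or that control apolipoprotein genes, were counted in 5 lists. Of 104 genes listed, 93 have a probe set named by their symbol alone, which leaves out Apoc4. Of these 74 gave a signal called present on either array, each taken by its brightest detected probe set. Past 1.5-fold were 1 higher, the regulator Mlxipl, and 0 lower, or 1.35% of the 74, where 4.49% of all 9670 genes detected were past it (2.81% higher, 1.68% lower). At 1.2-fold 5 were higher and 5 lower, each 6.76%, against 10.2% and 7.54% of all genes detected. Among the 6847 genes at least as bright as Apoa4 the shares were 4.91% and 3.64% at 1.2-fold, and 0.467% and 0.219% at 1.5-fold. The lists hold bright and dim genes, so neither background matches them in signal. The median log2 ratio was 0.03.

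Genes of Apob editing and particle assembly mostly lay close to control. Of 26 detected, 18 lay above a ratio of 1 and 8 below, with a median of 0.04, and 2 were 1.2-fold higher and 0 lower. Mttp, the transfer protein that loads lipid onto apolipoprotein B, had signals of 179 and 180. Apobec1, the enzyme that edits Apob RNA, was absent in control at 9.77 and present with T3 at 10.4. The chaperone Hspa5 had 2134 and 2196. P4hb, the partner subunit of the Mttp product, had 2201 and 2088, the lowest ratio of the list at 0.948. The highest was Fitm2, a lipid droplet protein, at 1.34, with 103 and 138. A dimmer Fitm2 probe set, absent with T3, had a log2 ratio of -0.13.

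Among the genes of lipolysis, 4 of 9 with a named probe set were detected, 0 past 1.2-fold, with a median of -0.05. Lipc, the hepatic lipase that acts on HDL and remnants, had 1432 and 1688, a ratio of 1.18, the highest of the list. Creb3l3, a liver factor known to activate Apoc2, Apoa4 and Apoa5 in mice, had 470 and 423, a ratio of 0.901. Lmf1, needed for lipase folding, was lowest at 0.876. Lpl, the lipase that Apoc2 and Apoc3 act on, was not detected on either array, nor were Lipg, Gpihbp1 and Angptl6.

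Receptors and lipid transfer genes had 15 detected, with 7 above a ratio of 1, 8 below and a median of -0.05. At 1.2-fold 1 was higher and 3 were lower. Sorl1 had the highest ratio by its brightest probe set, 1.36, but its other detected probe sets ran from 0.728 to 1.15. Atp5f1b, which binds apolipoprotein A-I at the cell surface, had 1726 and 1774, and the proteoglycan Sdc1, which captures remnants, 1745 and 1546.

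Of 20 detected regulators, 12 lay above a ratio of 1 and 8 below, with a median of 0.02. Mlxipl, the carbohydrate-responsive factor ChREBP, had 28.8 and 57.7, a ratio of 2.01. Rora, an orphan receptor known to activate apolipoprotein genes, had 244 and 186, the lowest ratio at 0.765, and its dimmer probe set 157 and 124, a ratio of 0.794. Foxa2 had 499 and 463, and the sterol-responsive factor Srebf2 368 and 421. Hnf4a, a main activator of apolipoprotein genes in liver, had 139 and 137, although a dimmer probe set was at 0.781. Ppara and Nr1h4, receptors for fatty acids and bile acids that regulate several members, were not detected. Cebpa, Foxa1, Nr2f1, Ppargc1a and Ppargc1b were not detected either.

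Other apolipoproteins and related proteins, not all of them secreted, had 9 genes detected, with 5 above a ratio of 1, 4 below and a median of 0.01. Apoh, a phospholipid-binding plasma protein, had 911 and 1001, the highest ratio at 1.10. Apol11a was lowest at 0.804, at signals of 13.8 and 11.1. Clu, also called apolipoprotein J, had 4107 and 3758, a ratio of 0.915, whereas its dim second probe set, at 29.8 and 50.2, had 1.68. Apod and Pltp were not detected.

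**Figure D5:**
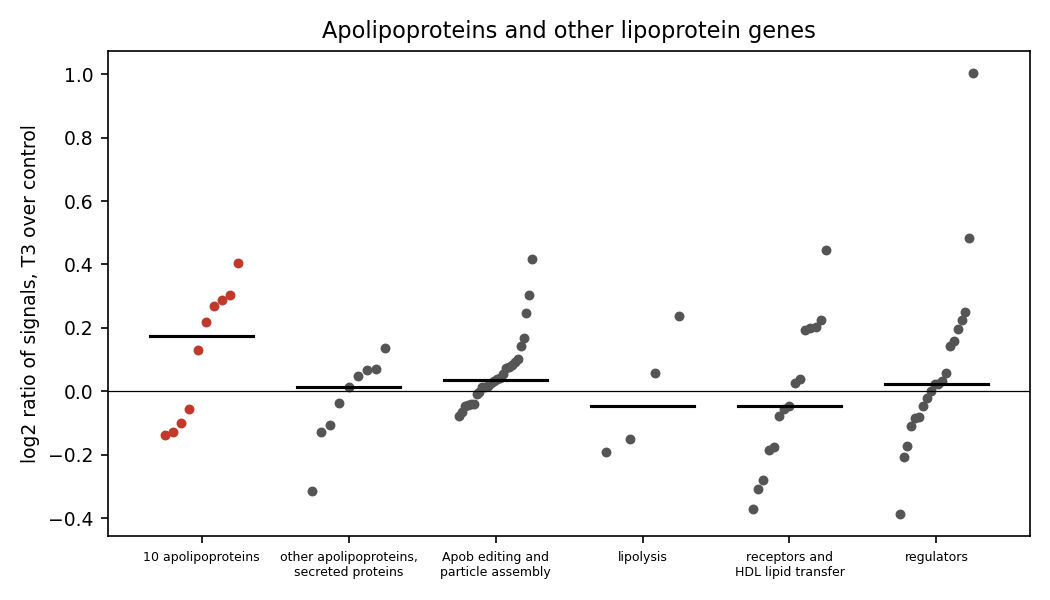
Log2 ratio of T3 over control signal for the 10 apolipoproteins (red) and for detected genes of the 5 lipoprotein lists (grey), sorted within each list. Black lines are medians, 0.17 for the apolipoproteins and -0.05 to 0.04 for the lists, and the highest grey point is Mlxipl.

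Hepatocyte markers were detected in both cultures, and so were markers of other liver cells. Of 10 hepatocyte markers 9 were detected, with a summed signal of 13319 in control and 13072 with T3, and Tf has no named probe set. The brightest was Alb, at 3972 and 3449, and the dimmest Asgr1, at 13.6 and 12.3. Kupffer cells and other macrophages can make Apoe and Apoc1. Of their 10 markers 8 have a named probe set, and 2 of these were detected, with summed signals of 45.2 and 48.8. Lyz2 had 40.4 and 41.2, and the dim Cd163 had 4.79 and 7.64, a ratio of 1.60, while Cd68, Csf1r, Clec4f, Adgre1, Aif1 and Ptprc were absent on both arrays. Stellate cell markers had 8 of 10 detected and summed signals of 3314 and 2998, most of it Vim and Tagln, at ratios of 0.874 and 0.899. Of the 8, 3 lay above a ratio of 1 and 5 below, with a median log2 ratio of -0.13. Reln, the next brightest, had 417 and 389, a ratio of 0.933, and its dimmer probe set 0.769. Of the markers dimmer than Reln, Acta2, Des and Col3a1 were higher, at 1.21, 1.22 and 1.22. Lrat, a vitamin A enzyme of stellate cells, was lower at 0.532, with 13.8 and 7.32. Col1a1, absent in control, had 9.02 and 8.01. Bile duct markers had 6 of 10 detected with summed signals of 3483 and 3076, and endothelial markers 1 of 10 with 6.79 and 5.94. The part of other cells in the apolipoprotein ratios was not tested. Beta-actin probe sets at the 3′ end read 1.32 times those at the 5′ end on the control array and 1.38 times on the T3 array, a ratio that rises as RNA breaks down, and for Gapdh it was 1.15 and 1.16.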

How the data were processed

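RNA of 1 control and 1 T3-treated hepatocyte culture was hybridised to 1 array each. For each probe set the authors deposited the intensity on each array, a MAS5 signal after normalization per the file headers, with a detection p-value and a call of present, marginal or absent. Present calls reached a p-value of 0.0461. The deposited ratio divides the T3 intensity by that of control; it matched the recomputed value within a relative 1e-06 in all 31095 probe sets. Affymetrix Expression Console is named per the submitters' processing notes; its version and scaling target were not stated in these sources.

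From these the log2 ratio was computed with no pseudocount after 57 array controls were left out. Probe sets were named by gene number through the GRCr8 gene table (18645) or by the symbol of the file (524), and those with several symbols (599) or none (11270) were left unnamed. A gene is represented by its detected probe set of highest mean signal. Members, classes and lists were chosen with earlier results of these data known. All member probe sets are named, and from each other list those past 1.5-fold, the 2 brightest, the highest and the lowest ratio among those present on both arrays. The others named (Mttp, Apobec1, Hnf4a, some cell type markers, genes not detected and chromosomal neighbours) were added for their role, place or signal. Some listed genes are not reported here. With 1 array per group precision is limited by the number of arrays, and no test was possible. Python 3.11.15, pandas 2.3.3, statsmodels 0.14.6 (loess) and matplotlib 3.10.9 were used, and counting and scaling steps were tested on simulated data. Alternatives were 2 pseudocounts, 3 normalizations, the series value table, detection filters, the choice of probe set, the class membership and the fold threshold.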

Additional observations from a re-analysis of the deposited data

How the results depend on the processing

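Under median centring, loess and quantile normalization, all 30 member log2 ratios kept their sign; a pseudocount cannot turn a sign, and the series value table holds the same signals. A pseudocount of 64 took Apoa4 from 0.40 to 0.21, Apoc2 from 0.30 to 0.19 and Apoa5 from 0.29 to 0.18, which left Apoc3 highest at 0.25. Apoa1 and Apoe came closest to 0 under quantile normalization, at -0.0042 and -0.03. The difference between the class medians ranged from 0.21 to 0.33 over the 7 of 13 alternatives that altered it, of which leaving out Apob was chosen after seeing the data; the other 6 could not, since each member has 1 detected probe set and centring cancels in a difference. The HDL median ranged from -0.06 to 0.04 and changed sign in 1 of the 6 alternatives that altered it. With a threshold of 1.2-fold, 4 member probe sets and 10 listed lipoprotein genes (5 higher, 5 lower) were past it, instead of 0 and 1. The number of listed genes past 1.5-fold was 0 after 64 was added to each signal and 10 (7 higher, 3 lower) when detection was not required, since pseudocounts shrink and the filter removes ratios of dim probe sets. No paired analysis was possible because each group holds 1 array. Array signal limits what can be seen: Apob RNA is measured by 1 probe set, and Apobec1 and Lpl lie at or below detection.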
